A study of Mus musculus with 6 samples.

Results

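The 10 genes described here encode metallothioneins and the proteins that sense, carry, store and export zinc and iron. They were taken as the rows of the raw count table whose symbol is Mt1, Mt2, Mtf1, Slc30a1, Slc39a10, Tfrc, Slc25a37, Fth1, Ftl1 or Slc40a1, and all 10 were found among the 26027 genes of the table. The set was put together with the genotype comparison already known, and was chosen by the CPM of Mt2, which was among the genes with higher values in P95H/+. Differences between genotypes in these 10 genes are therefore given as descriptions, with a fitted log2 fold change and its SE but no p-value.

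RNA was sequenced from Lin-/cKit+/eYFP+ bone marrow cells, which the labels call immature haematopoietic multipotent progenitors. The 3 P95H/+ libraries came from hScl-CreERT R26eYFP Srsf2 P95H/+ mice, all 32 weeks old, with replicates 1 and 2 female and replicate 3 male. The 3 wild-type libraries came from hScl-CreERT R26eYFP Srsf2 +/+ mice, a female of 54 weeks for replicate 1 and males of 32 weeks for replicates 2 and 3. All mice were C57BL/6 and were treated in vivo with tamoxifen, so that the controls also carried the inducible Cre, driven by Scl regulatory sequence active in blood stem and progenitor cells, and the eYFP reporter of recombination. The labels number the samples but do not say whether each is a single mouse. If some were not, a p-value here speaks of the spread among libraries alone, which may be technical.

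Zinc and iron are needed by dividing blood progenitors and are toxic when free. Metallothioneins are small cysteine-rich proteins that bind zinc and copper, and their genes are switched on by MTF1, a zinc-sensing transcription factor that binds metal response elements. Iron enters cells on transferrin through the transferrin receptor, is stored in ferritin and leaves through ferroportin. Iron regulatory proteins bind hairpins called iron-responsive elements in the mRNAs of these genes. Binding in the 5′ UTR blocks translation, and binding in the 3′ UTR of the transferrin receptor mRNA protects it from decay.

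Promoter windows of Mt1 and Mt2 are shown because these neighbouring genes are the metallothioneins measured here and share a known regulator. RefSeq sequence of build GRCm38.p6 was taken from 250 bases before to 50 bases after the RefSeq start of each gene. It was searched on both strands for the metal response element cores TGCACNC and TGCGCNC. The RefSeq start is 94179089 for Mt1 and 94172618 for Mt2, against 94179082 and 94172664 in the GENCODE annotation. The Mt2 window thus lies almost wholly before the GENCODE start of that gene. Capitals mark matches. The Mt1 window is chr8:94178839-94179138 and the Mt2 window chr8:94172368-94172667, both on the plus strand.
Mt1: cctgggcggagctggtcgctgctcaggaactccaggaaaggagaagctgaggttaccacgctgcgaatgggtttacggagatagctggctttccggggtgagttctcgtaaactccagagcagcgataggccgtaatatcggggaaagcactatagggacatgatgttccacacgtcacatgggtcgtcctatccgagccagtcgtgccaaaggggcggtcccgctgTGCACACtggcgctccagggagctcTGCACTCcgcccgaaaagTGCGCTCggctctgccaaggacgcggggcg
Mt2: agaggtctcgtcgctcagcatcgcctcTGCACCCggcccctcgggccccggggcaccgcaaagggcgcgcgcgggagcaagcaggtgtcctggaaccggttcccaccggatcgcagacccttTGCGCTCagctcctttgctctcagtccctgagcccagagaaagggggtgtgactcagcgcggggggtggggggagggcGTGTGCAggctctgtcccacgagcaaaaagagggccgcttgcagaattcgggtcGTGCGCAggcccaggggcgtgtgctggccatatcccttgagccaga

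The Mt1 window held 3 matches, all on the gene's strand, and the Mt2 window held 4, with 2 on each strand. Of the 32851 windows in the RefSeq table, 25.7% held at least 1 match, 1.97% at least 3 and 0.517% at least 4. The window of Slc30a1 held 2 matches and the first of the 2 windows of Tfrc also 2, while those of Mtf1, Slc39a10, Fth1 and Ftl1 held 0. Slc25a37 and Slc40a1 were not matched in the table. A match is only a run of letters, and no binding was measured.

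**Figure D1:**
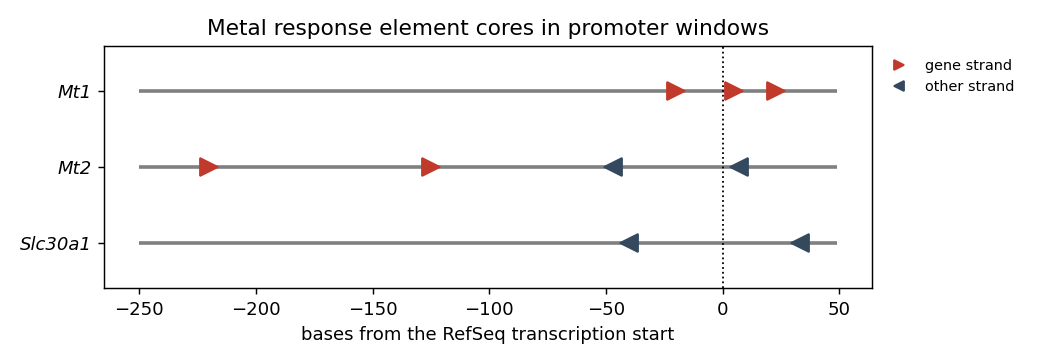
Positions of metal response element cores (triangles, pointing right on the gene's strand and left on the other) in the promoter windows of Mt1, Mt2 and Slc30a1, on a scale of bases from the RefSeq start (dotted line). Mt1 has 3 matches, Mt2 has 4 and Slc30a1 has 2.

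Iron-responsive elements are shown because they are the feature that sets Tfrc apart from the ferritin and ferroportin mRNAs in how iron acts on them. Each line gives 30 bases of the lowest-numbered GENCODE M21 transcript of the gene. The pattern searched was a C, any 5 bases, CAGTG and any 1 base, and capitals mark its CAGTG loop. On mm10 the sites lie at chr19:9982730-9982759 for Fth1, chr7:45459780-45459809 on the minus strand for Ftl1 and chr1:45925466-45925495 on the minus strand for Slc40a1, each in the 5′ UTR. Fth1 had another match in its 3′ UTR, at chr19:9984971-9985000, which is not printed. The 5 Tfrc matches, numbered as sites, lie in the 3′ UTR between positions 32631217 and 32631737 of chromosome 16.
Fth1: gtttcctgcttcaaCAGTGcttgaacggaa
Ftl1: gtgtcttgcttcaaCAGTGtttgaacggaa
Slc40a1: tccaacttcagctaCAGTGttagctaagtt
Tfrc site 1: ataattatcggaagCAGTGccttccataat
Tfrc site 2: cacattatcgggagCAGTGtcttccataat
Tfrc site 3: gtttttgcctaccaCAGTGtctatatcgga
Tfrc site 4: gtctatatcggagaCAGTGatctccatatg
Tfrc site 5: gtaattatcgggaaCAGTGtttcccataat

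Of the 5 Tfrc matches, 4 carried the letters tatcgg before the loop, and site 3 did not. The printed bases of site 3, at 32631643 to 32631672, overlap those of site 4, at 32631661 to 32631690. The pattern alone is loose. It occurred in the first 200 bases of 7.62% of 21208 protein coding transcripts, and at least 5 matches stood in the last 2000 bases of 0.762% of 11946 transcripts of that length, where Tfrc also has 5. Transcripts of 7 of the 10 genes held it at least once, among them Mtf1 with 8 matches, none of them in its 5′ UTR.

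Library totals ran from 10747941 to 22614408 counts in P95H/+ and from 16842751 to 23010510 in wild type, with the lowest total in P95H/+ replicate 3. Kit, the receptor used in the sort, stood at 476 to 548 CPM (the count per library total, on a scale shared by all libraries) in P95H/+ cells and 482 to 532 CPM in wild-type cells. Srsf2 averaged 331.1 CPM in P95H/+ cells and 332.5 CPM in wild-type cells, and the base change cannot be read from such counts. Both replicate 3 libraries leaned toward GC-rich genes. On a log2 scale centred on each gene's mean over the 6 libraries, genes with a transcript GC content over 55% had a median deviation of 0.56 in replicate 3 of P95H/+ and 0.27 in that of wild type, against -0.23 to -0.14 in the other 4 libraries. Genes of at most 40% GC had medians of -0.83 and -0.59 in these replicate 3 libraries and 0.31 to 0.45 in the others. The plot of fold changes therefore also shows the differences of the 10 genes without replicate 3 of both genotypes and after a correction for this GC trend.

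The comparison of P95H/+ with wild type asks which transcripts differ in progenitors with a mutant Srsf2 allele. All 10 genes entered the test, and 0 of them passed an adjusted p of 0.05 with edgeR's quasi-likelihood test, beside 0.0% of the 17144 genes tested. Over all genes 361, or 2.11%, had an unadjusted p under 0.05, DESeq2 called 8 genes (0.0467%) and limma voom called 0. With the replicate number as a block, with or without the GC correction, 1 gene was called (0.00583%), and without wild-type replicate 3 also 1 (0.00567%), neither among the 10. The two-sided test without replicate 3 of both genotypes called 144 genes, 0.829% of 17371, and again 0 of the 10. That fit sets P95H/+ females of 32 weeks against a wild-type female of 54 weeks and a wild-type male of 32 weeks. No wild-type sample in it matches those of P95H/+ in both sex and age, so genotype cannot be told apart from these there. In all 6 libraries the genotypes overlapped for each of the 10 genes. They did not overlap for 7.84% of the genes tested, 1.91% with P95H/+ higher and 5.93% with P95H/+ lower. Overlap was judged on CPM over library totals. With that scaling the median log2 fold change over all genes tested was -0.05, so the shares higher and lower hold for that scale. The fold changes that follow use the scaling of the edgeR test. The median log2 fold change of the 10 was 0.10, against 0.02 over all genes tested, and 8 of the 10 lay above 0, where 53.1% of all genes did. Since Mt2 was chosen for this contrast, nothing is read from these counts.

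**Figure D2:**
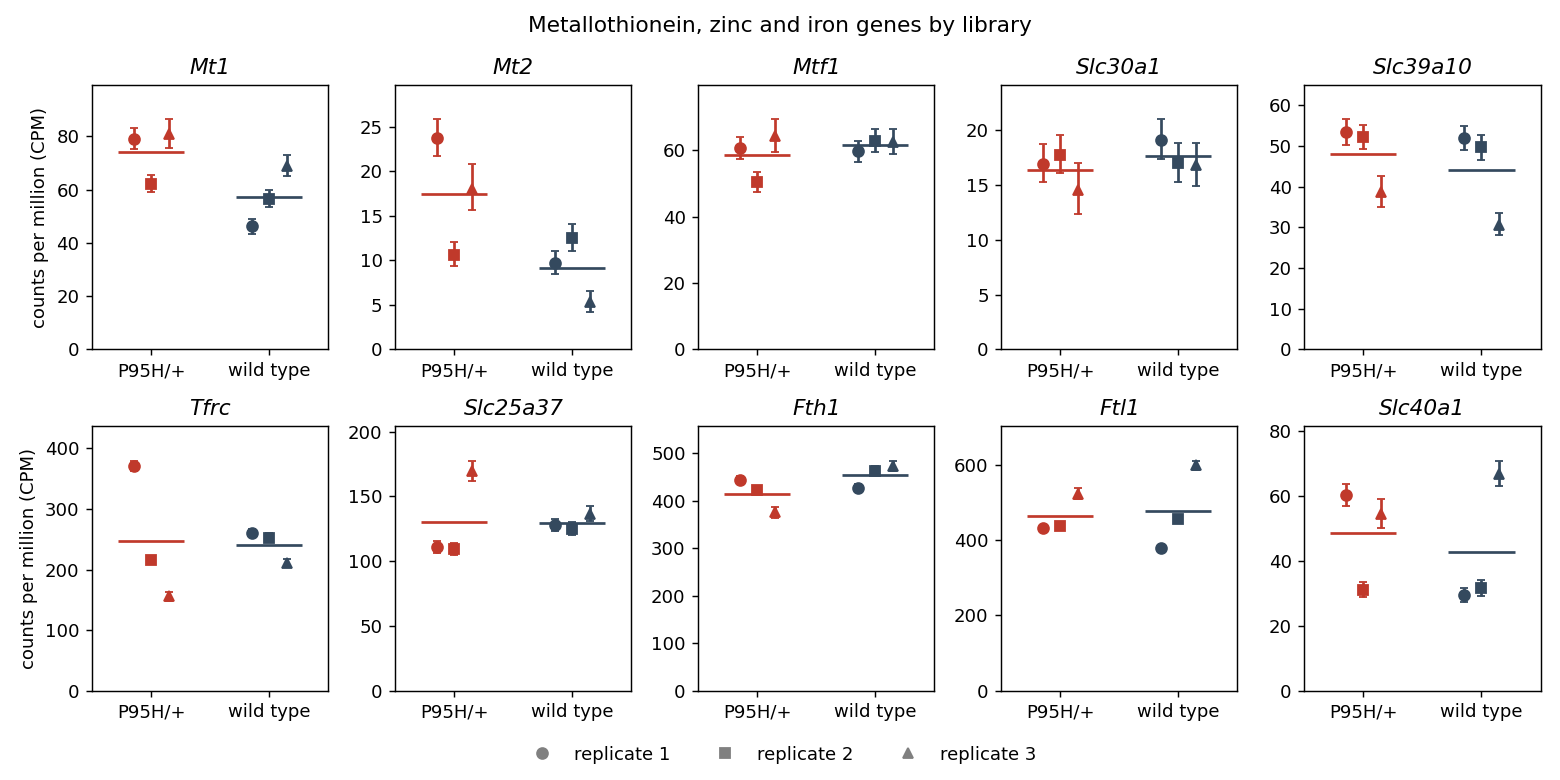
CPM of the 10 genes (one panel each, axes from 0) in the 3 P95H/+ and 3 wild-type libraries, with marker shape for the replicate number, bars for 95% Poisson intervals of the count and a line at the group mean. Mt1 averages 74.0 CPM in P95H/+ cells and 57.2 in wild-type cells and Mt2 averages 17.4 in P95H/+ cells and 9.16 in wild-type cells, and in every panel the groups overlap.

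Mt2, one of the ubiquitous metallothionein genes (ENSMUSG00000031762, mm10 chromosome 8, 94172664 to 94173568, plus strand, protein coding), had 23.7, 10.6 and 18.1 CPM in P95H/+ replicates 1, 2 and 3. In wild-type replicates 1, 2 and 3 it had 9.69, 12.5 and 5.28 CPM. P95H/+ replicates 1 and 3 lay above every wild-type library, P95H/+ replicate 2 lay below wild-type replicate 2, and wild-type replicate 3 was lowest of all. The means were 17.4 ± 6.55 CPM in P95H/+ cells and 9.16 ± 3.64 CPM in wild-type cells (SD, n = 3 each), and the log2 fold change was 1.00 (SE 0.42). These are the values for which the gene was chosen.

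Wild-type replicate 3 held 89 counts of Mt2, with an exact Poisson 95% interval of 4.24 to 6.50 CPM, and P95H/+ replicate 1 held 513 counts, with an interval of 21.7 to 25.8 CPM. Such intervals cover counting error only. The highest Mt2 library was 4.48 times the lowest, the widest range among the 10 genes. Without replicate 3 of both genotypes the log2 fold change of Mt2 was 0.66 (SE 0.50) and after the GC correction it was 0.97 (SE 0.42). An annotated antisense gene, Gm45774, overlaps Mt2 on the other strand, and its reads could enter the count if counting ignored strand, which is not stated. No counts are given for Gm45774 itself, so the size of such an entry could not be judged.

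Mt1, its neighbour on chromosome 8 (ENSMUSG00000031765, 94179082 to 94180327, plus strand, protein coding), also encodes a zinc-binding metallothionein. Its values were 79.1, 62.2 and 80.8 CPM in P95H/+ replicates 1, 2 and 3, against 46.2, 56.6 and 69.0 CPM in those of wild type. The groups overlapped because wild-type replicate 3 stood above P95H/+ replicate 2. Within each replicate number the P95H/+ library was the higher. Samples of the same number are not established pairs, and the share of all genes with such an order was not computed. Mean levels were 74.0 ± 10.3 CPM in P95H/+ cells and 57.2 ± 11.4 CPM in wild-type cells (SD, n = 3 each), and the fitted log2 fold change was 0.45 (SE 0.23). It was 0.49 (SE 0.16) without replicate 3 of both genotypes and 0.45 (SE 0.17) after the GC correction. Leaving out single libraries moved it between 0.31 and 0.59.

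The metallothionein genes did not keep a fixed ratio. Counts of Mt2 over those of Mt1 were 0.299, 0.171 and 0.224 in P95H/+ replicates 1, 2 and 3 and 0.21, 0.221 and 0.0766 in wild-type replicates 1, 2 and 3. Wild-type replicate 3 fell well under the other 5 libraries, which lay between 0.171 and 0.299, so that its low Mt2 was not shared by Mt1. The longest stretch that the Mt1 and Mt2 transcripts share is 20 bases, far below the 150-base reads.

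Profiles over the 6 libraries were compared for Mt2 and Mt1. That of Mt2 holds the values for which the gene was chosen, so its closest genes follow from that choice. Likeness was measured as the root mean square difference between log2 CPM profiles centred on their mean, over genes with a mean of at least 10 CPM. For Mt2 the closest of 9679 genes were Nefh, a neurofilament gene, at 0.27, then Ell2, an elongation factor gene, at 0.35, Tarsl2, a threonyl-tRNA synthetase gene, at 0.35, Ccdc124 at 0.36 and Larp1b at 0.37. Mt1 ranked 640 in this order, at 0.61. For Mt1 the closest were Mthfd1, an enzyme of folate metabolism, at 0.06, then Alas1, the ubiquitous first enzyme of heme synthesis, at 0.09. Hyou1, a chaperone of the endoplasmic reticulum, followed at 0.10. Mt2 ranked 7808 in the order for Mt1, at the same 0.61. The measure is not scaled to the range of a gene, so the rank depends on which gene is the reference. Mthfd1 stood at 283, 221 and 325 CPM in P95H/+ cells and at 177, 207 and 256 CPM in wild-type cells, in the order of the replicates.

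Mtf1, the zinc sensor that drives metallothionein genes (chromosome 4, 124802104 to 124849800), was the steadier counterpart. It had 60.7, 50.4 and 64.3 CPM in P95H/+ cells and 59.6, 62.8 and 62.6 CPM in wild-type cells. The wild-type libraries lay inside the range of P95H/+ libraries, and the log2 fold change was 0.00 (SE 0.20), or -0.08 when libraries were scaled by their totals alone. Slc30a1, the exporter that moves zinc out across the plasma membrane and is itself an MTF1 target (chromosome 1, 191906767 to 191913247), stood at 16.9, 17.8 and 14.5 CPM in P95H/+ cells and 19.1, 17.0 and 16.8 CPM in wild-type cells. Its log2 fold change was -0.03 (SE 0.20), and after the GC correction all 6 libraries lay between -0.07 and 0.05 of its mean on the log2 scale. A neighbour on the other strand overlaps each of these genes. That of Mtf1, 1110065P20Rik, held 68 to 103 counts and that of Slc30a1, 1700034H15Rik, held 1 to 6, against at least 691 and 156 counts of the genes themselves.

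Slc39a10, a zinc importer of the ZIP family (chromosome 1, 46807544 to 46892852, minus strand), had 53.3, 52.1 and 38.6 CPM in P95H/+ cells and 52.0, 49.6 and 30.6 CPM in wild-type cells. Replicate 3 was low in both genotypes. The transcripts of this gene have a GC content of 44.4%, and the GC trend of these libraries at that content was -0.43 in replicate 3 of P95H/+ and -0.32 in that of wild type. Its log2 fold change was 0.19 (SE 0.27), 0.27 (SE 0.14) after the GC correction and 0.09 (SE 0.09) without replicate 3 of both genotypes, and it turned to -0.02 without wild-type replicate 3. Within each replicate number the P95H/+ library was the higher.

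**Figure D3:**
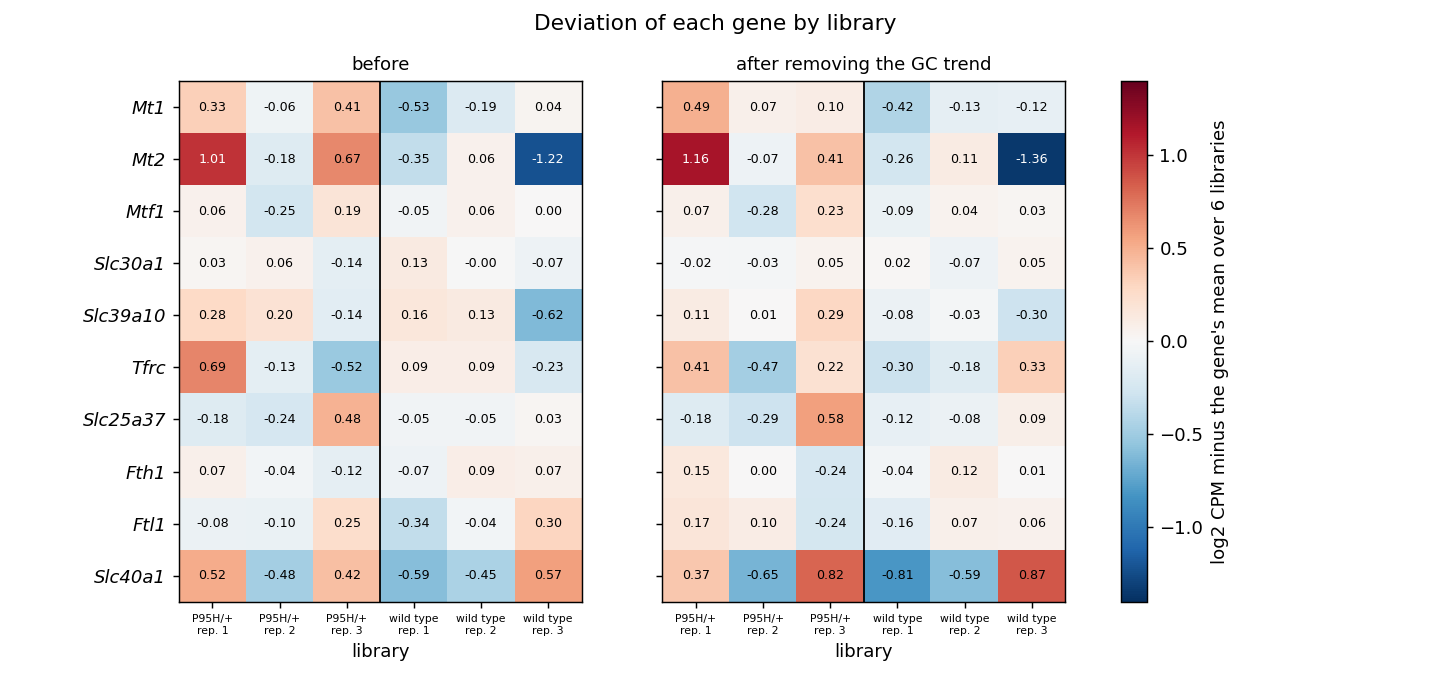
Heat maps of log2 CPM minus each gene's mean over the 6 libraries, for the 10 genes (rows) in the P95H/+ and wild-type libraries (columns), before (left) and after (right) removing each library's GC trend. Mt2 spans -1.22 in wild-type replicate 3 to 1.01 in P95H/+ replicate 1, and Slc30a1 stays between -0.14 and 0.13. After removing the trend Tfrc and Slc40a1 stand above 0 in P95H/+ replicates 1 and 3 and wild-type replicate 3.

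Tfrc is the transferrin receptor gene, whose mRNA holds the 5 matches shown above (ENSMUSG00000022797, chromosome 16, 32608920 to 32632794, plus strand). Of the 10 genes it had the widest range within P95H/+, as the highest over the lowest CPM. It stood at 372, 216 and 156 CPM in P95H/+ replicates 1, 2 and 3 and at 260, 253 and 211 CPM in those of wild type. P95H/+ replicate 1 was the highest library and P95H/+ replicate 3 the lowest, so that the wild-type range lay inside that of P95H/+. Group means were 248 ± 111 CPM in P95H/+ cells and 241 ± 26.7 CPM in wild-type cells (SD, n = 3 each), and the log2 fold change of 0.11 (SE 0.32) turned to -0.32 without P95H/+ replicate 1 and was 0.34 without P95H/+ replicate 3. At 39.4% GC, Tfrc is the most AT-rich of the 10 genes, and the trend at that content was -0.73 and -0.56 in the replicate 3 libraries of P95H/+ and wild type.

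Slc25a37, which encodes mitoferrin 1 and brings iron into mitochondria for heme in erythroid cells (chromosome 14, 69241848 to 69285112, minus strand), had 111, 109 and 169.6 CPM in P95H/+ cells and 128, 125 and 137 CPM in wild-type cells. P95H/+ replicate 3 was the highest library and P95H/+ replicates 1 and 2 were the lowest. The log2 fold change was 0.08 (SE 0.24) in all 6 libraries and -0.17 (SE 0.08) without replicate 3 of both genotypes. In those 4 libraries both P95H/+ values lay below both wild-type values for this gene, and above them for Mt1 and Slc39a10. Such separation was seen for 3 of the 10 genes, and for 48.1% of all genes tested in the 4 libraries, 19.9% with P95H/+ higher and 28.2% with P95H/+ lower. In those libraries 1 of 20 erythroid markers passed the test, beside 0.829% of all genes. This was Slc4a1, the anion exchanger of red cells, which fell by 1.10 on the log2 scale (SE 0.12, adjusted p 0.0035 with edgeR). Sex and age are not matched between the genotypes in those 4 libraries. The list as a whole did not go that way, with 10 of 20 above 0 and a median of 0.03, and its part in the value of Slc25a37 was not tested.

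Slc40a1 encodes ferroportin, the iron exporter (chromosome 1, 45908068 to 45926523, minus strand). Its CPM were 60.1, 31.0 and 54.3 in P95H/+ replicates 1, 2 and 3 and 29.3, 31.6 and 66.7 in wild-type replicates 1, 2 and 3. The libraries formed a high set of 3, from 54.3 to 66.7 CPM, and a low set of 3, from 29.3 to 31.6 CPM, with both genotypes in each. The log2 fold change was 0.28 (SE 0.40) and moved between 0.06 without P95H/+ replicate 1 and 0.74 without wild-type replicate 3. It was 0.61 (SE 0.42) without replicate 3 of both genotypes.

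Some markers of erythroid cells were high in the same 3 libraries, and others were not. The share of all genes with such an order was not computed. Rhag, an ammonium channel of red cell precursors, stood at 39.2, 16.2 and 33.2 CPM in P95H/+ cells and 15.5, 21.5 and 41.1 CPM in wild-type cells, and Cldn13, a claudin of erythroid precursors, at 18.1, 8.14 and 25.9 CPM in P95H/+ cells and 8.996, 10.9 and 31.5 CPM in wild-type cells. These markers were picked out of the list of 20 after their values were seen. The whole list, of which all 20 had counts in every library, summed to 1511, 1175 and 3279 CPM in P95H/+ cells and 1309, 1591 and 2241 CPM in wild-type cells. The adult globin gene Hbb-bs was at 106, 137 and 394 CPM in P95H/+ cells and 189, 237 and 245 CPM in wild-type cells, so that it was lowest in P95H/+ replicate 1, where Slc40a1 and Tfrc were high. Over the 20 markers the median log2 fold change was 0.30 with 17 above 0, and 0 passed the test. Without replicate 3 of both genotypes the median was 0.03 with 10 of 20 above 0. In bulk RNA more cells of a type and more RNA per cell cannot be told apart, and the part of these markers in the levels of Slc40a1, Tfrc and Slc25a37 was not tested.

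Macrophages also express ferroportin and ferritin at high levels. The list of 13 macrophage markers summed to 289, 248 and 267 CPM in P95H/+ cells and 237, 264 and 284 CPM in wild-type cells, most of it from Csf1r, the receptor also found on myeloid progenitors, at 146 to 178 CPM in P95H/+ cells and 156 to 191 CPM in wild-type cells. Vcam1, an adhesion molecule of macrophages and stroma, was at 98.2, 29.3 and 43.9 CPM in P95H/+ cells and 24.0, 18.5 and 54.0 CPM in wild-type cells. The cells were sorted as Lin-/cKit+/eYFP+, and how many macrophages remained was not measured. Cd163, a scavenger receptor, was at 20.7, 28.9 and 26.1 CPM in P95H/+ cells and 30.4, 31.2 and 35.6 CPM in wild-type cells. Adgre1, the gene of the F4/80 antigen, was at 9.14, 10.1 and 9.03 CPM in P95H/+ cells and 13.5, 11.8 and 12.9 CPM in wild-type cells. These 2 were wholly lower in P95H/+, as were 5.93% of all genes tested. The single markers named here were picked from the list. Of its 10 tested genes 0 passed with edgeR, and 6 lay above 0, with a median log2 fold change of 0.02. The complement markers C1qa, C1qb and C1qc did not exceed 1.52 CPM in any library, and Timd4 was at 0 in 4 of the 6 libraries and at most 0.0594 CPM. The part of macrophages in the levels of Slc40a1, Fth1 and Ftl1 was not tested.

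**Figure D4:**
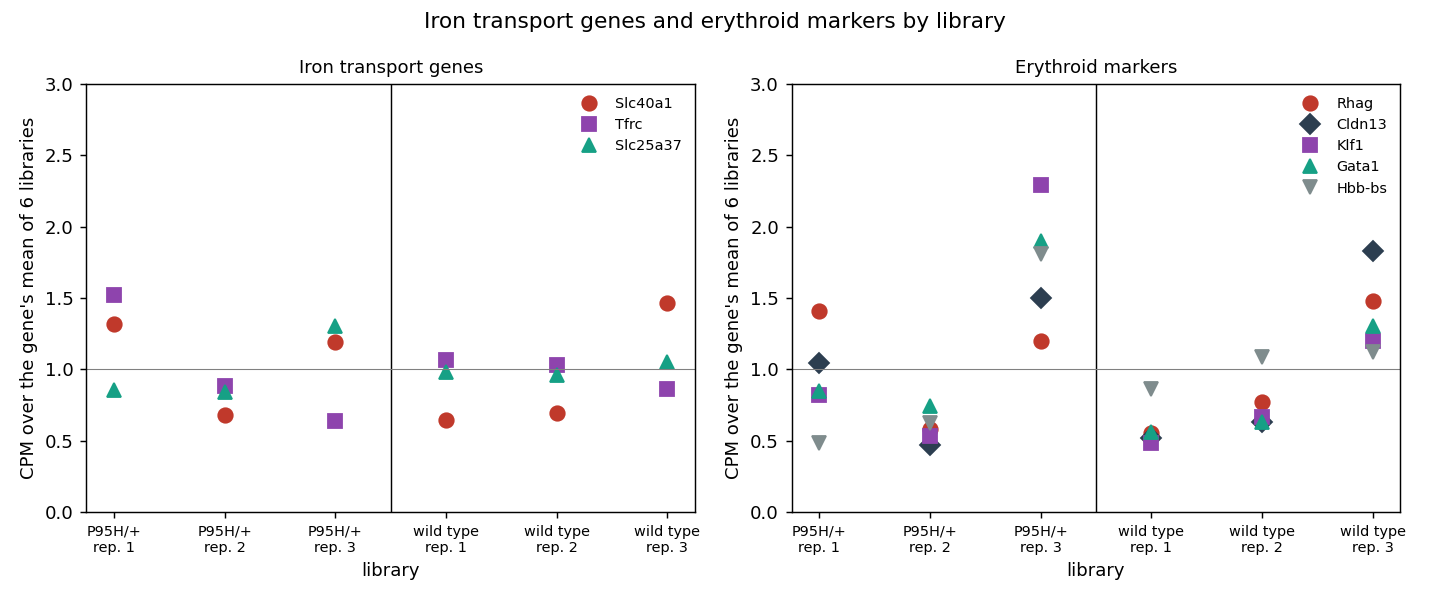
Levels in each library over the gene's mean of 6 libraries (CPM ratio, axis from 0) for Slc40a1, Tfrc and Slc25a37 (left) and for 5 of the 20 erythroid markers, picked after their values were seen (right). Slc40a1 and Rhag are high in P95H/+ replicates 1 and 3 and wild-type replicate 3, where Slc40a1 has 54.3 to 66.7 CPM, while Hbb-bs is lowest in P95H/+ replicate 1 at 106 CPM.

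The ferritin genes were the most abundant of the set. Fth1, the heavy chain with ferroxidase activity (chromosome 19, 9980598 to 9985098), had 444, 423 and 376 CPM in P95H/+ cells and 427, 463 and 474 CPM in wild-type cells. P95H/+ replicate 3 was lowest, and the log2 fold change of -0.06 (SE 0.18) stayed below 0 in all 16 other fits, from -0.14 to -0.01. Ftl1, the light chain that helps iron core formation (chromosome 7, 45457944 to 45459884, minus strand), had 431, 437 and 523 CPM in P95H/+ cells and 379, 456 and 598 CPM in wild-type cells. Replicate 3 was the highest library of each genotype, and the log2 fold change was 0.04 (SE 0.23), or -0.04 when libraries were scaled by their totals alone. The transcripts of Ftl1 have a GC content of 57.7%, the highest of the 10, and the GC trend at that content was 0.49 in replicate 3 of P95H/+ and 0.24 in that of wild type.

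Counts of Fth1 over those of Ftl1 were 1.03, 0.967 and 0.719 in P95H/+ replicates 1, 2 and 3 and 1.13, 1.02 and 0.792 in those of wild type. Within each replicate number the ratio was lower in the P95H/+ library than in that of wild type, though the numbers are not established pairs. Both replicate 3 libraries stood under the other 4, and the part of the GC trend in this was not tested. Ferritin pseudogenes share sequence with these genes. Fth-ps2 held 20 to 63 counts and Ftl1-ps1 20 to 101, beside at least 4036 counts of Fth1 and 5617 of Ftl1.

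Levels were compared between genes per kilobase of the lowest-numbered GENCODE transcript. On this scale Ftl1 stood at 479 ± 52.9 CPM per kb in P95H/+ cells and 494 ± 115 in wild-type cells, and Fth1 at 446 ± 37.6 in P95H/+ cells and 489 ± 26.6 in wild-type cells (SD, n = 3 each), so that the ferritin chains did not differ beyond their spread. Mt1 came next at 135 ± 18.7 in P95H/+ and 104 ± 20.8 in wild type. Tfrc at 50.7 ± 22.8, Mt2 at 34.1 ± 12.8 and Slc25a37 at 31.1 ± 8.23 CPM per kb overlapped within their spread in P95H/+ cells. In wild-type cells Tfrc was at 49.3 ± 5.47, Slc25a37 at 31.1 ± 1.46 and Mt2 at 17.9 ± 7.13 CPM per kb. Slc40a1, Slc39a10 and Mtf1 followed, at 14.4 ± 4.58, 8.74 ± 1.49 and 7.66 ± 0.947 CPM per kb in P95H/+ and 12.6 ± 6.22, 8.02 ± 2.13 and 8.08 ± 0.232 in wild type, and Slc30a1 was lowest at 3.13 ± 0.323 in P95H/+ cells and 3.36 ± 0.245 in wild-type cells. Over the longer sum of all annotated exons, the values of Fth1 were 119 CPM per kb in P95H/+ cells and 131 in wild-type cells, below those of Ftl1, at 346 in P95H/+ cells and 357 in wild-type cells, so that the near equality of the ferritin chains depends on the length used.

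**Figure D5:**
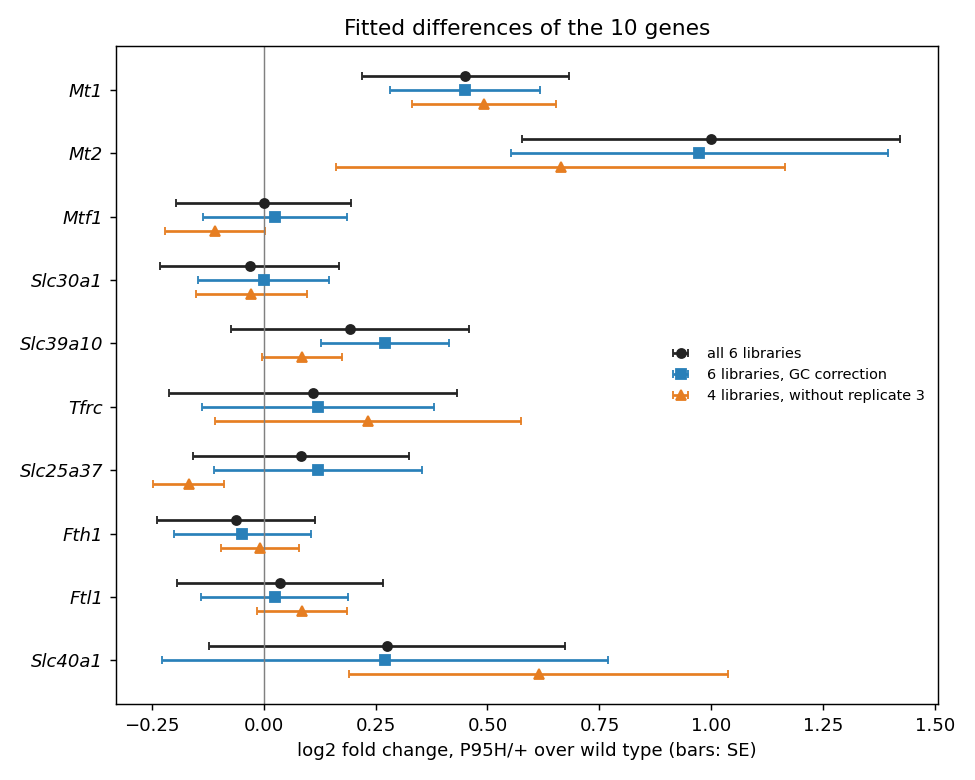
Log2 fold change of P95H/+ over wild type with its SE for the 10 genes, from all 6 libraries (circles), after the GC correction (squares) and without replicate 3 of both genotypes (triangles). Mt1 stays between 0.45 and 0.49, Mt2 is at 1.00, 0.97 and 0.66, and Slc25a37 is at 0.08 in 6 libraries and -0.17 in 4.

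Other genes of zinc handling were taken as a family list of zinc transporters. Of 20 with counts listed, 17 were tested, and 0 passed with edgeR in 6 libraries or in the 4 without replicate 3, with 0 at an unadjusted p under 0.05. Their median log2 fold change was -0.03, with 8 of 17 above 0, and 0.05 with 11 of 17 above 0 in the 4 libraries. The most abundant in CPM were Slc30a5, a transporter into the secretory pathway, at 128 ± 22.01 CPM in P95H/+ cells and 143 ± 7.91 CPM in wild-type cells, Slc39a9 at 81.8 ± 2.00 in P95H/+ cells and 89.3 ± 13.7 CPM in wild-type cells and Slc39a11 at 69.8 ± 17.0 in P95H/+ cells and 77.1 ± 27.1 CPM in wild-type cells (SD, n = 3 each). The smallest p were those of Slc30a4, at 9.19 ± 1.92 CPM in P95H/+ cells and 14.2 ± 4.87 CPM in wild-type cells, with a log2 fold change of -0.55 (SE 0.33), and of Slc39a4, an importer best known from gut and here carried by 1 library, at 4.76 ± 2.51 in P95H/+ cells and 3.36 ± 0.144 CPM in wild-type cells, with 0.57 (SE 0.40). Its values in P95H/+ replicates 1, 2 and 3 were 3.69, 2.96 and 7.63 CPM, and its log2 fold change was 0.04 without P95H/+ replicate 3. That of Slc30a4 was -0.68 (SE 0.14, adjusted p 0.0551 with edgeR) without replicate 3 of both genotypes.

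Other genes of iron handling numbered 34, of which 27 were tested. With edgeR 0 passed in 6 libraries, 0 had an unadjusted p under 0.05, and 0 passed in the 4 libraries without replicate 3. Their median log2 fold change was 0.12, with 19 of 27 above 0, against 0.05 with 16 of 27 above 0 in the 4 libraries. Pcbp1, an RNA-binding protein that also delivers iron to ferritin, was at 420 ± 69.9 CPM in P95H/+ cells and 349 ± 21.5 CPM in wild-type cells, with a log2 fold change of 0.34 (SE 0.21), or 0.20 (SE 0.08) without replicate 3 of both genotypes. Nfs1, the cysteine desulfurase of iron-sulfur cluster assembly, stood at 46.5, 44.2 and 41.8 CPM in P95H/+, above the 37.9, 38.9 and 37.9 CPM of wild type, with a log2 fold change of 0.28 (SE 0.18). It was the 1 gene of this list wholly higher in P95H/+, where 1.91% of all genes tested were. Wholly lower, as 5.93% of all genes tested, were 2, named after their values were seen. Cp, the ferroxidase ceruloplasmin, had 1.89, 1.77 and 1.12 CPM in P95H/+ cells and 2.43, 2.13 and 1.959 CPM in wild-type cells. Flvcr1, a transporter first described as a heme exporter, had 37.97, 34.98 and 23.4 CPM in P95H/+ cells and 41.6, 41.7 and 38.4 CPM in wild-type cells. Pcbp2 was at 314 ± 27.98 in P95H/+ cells and 323 ± 23.9 CPM in wild-type cells and Ncoa4, the receptor that takes ferritin to autophagy, at 134 ± 27.5 in P95H/+ cells and 156 ± 5.74 CPM in wild-type cells. Apart from Cp and Flvcr1, the 9 genes named from these lists each had an adjusted p of 1.00 with edgeR's quasi-likelihood test.

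Metallothionein genes also respond to oxidative stress and to glucocorticoids, so lists of genes induced by these were counted. Of 10 tested NRF2 and redox targets 0 passed with edgeR and 1 had an unadjusted p under 0.05, with a median log2 fold change of 0.08. That gene was Gclm, the modifier subunit of the first enzyme of glutathione synthesis, at 121, 107 and 114 CPM in P95H/+ cells and 88.8, 83.4 and 75.6 CPM in wild-type cells. The genotypes did not overlap, as for 7.84% of all genes tested (1.91% with P95H/+ higher), and 2.11% of all genes had an unadjusted p under 0.05. Its log2 fold change was 0.54 (SE 0.18) and its adjusted p was 1.00 with edgeR, and without replicate 3 of both genotypes they were 0.44 (SE 0.09) and 0.0668. The next, G6pdx, had 173 ± 30.6 in P95H/+ cells and 149.7 ± 13.3 CPM in wild-type cells, with 0.29 in 6 libraries and 0.13 in 4. The median of the list was 0.06 in 4. Of 9 tested glucocorticoid-induced genes 0 passed with 6 libraries, and 2 of 9 lay above 0, with a median of -0.10. Klf9 stood at 65.3 ± 6.10 CPM in P95H/+ cells and 46.9 ± 13.9 CPM in wild-type cells, with 0.55 (SE 0.25), and Errfi1 at 2.05 ± 0.378 in P95H/+ cells and 3.69 ± 1.503 CPM in wild-type cells, with -0.79 (SE 0.38), or -1.18 (SE 0.26, adjusted p 0.0700 with edgeR) without replicate 3 of both genotypes. Without replicate 3 of both genotypes the median was -0.22 and 1 of the 9 passed, beside 0.829% of all genes. This was Per1, a clock gene, which fell by 0.50 on the log2 scale (SE 0.09, adjusted p 0.0361 with edgeR). Sex and age are not matched between the genotypes in that fit.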

How the data were processed

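Per the labels, ribosomal RNA was removed from total RNA of the sorted cells, libraries were prepared with the Kapa stranded kit, and both ends were read over 150 bases. The submitters' processing notes name Trim Galore, cutadapt, STAR 2.5.3a, Picard 1.96, featureCounts, Subread 1.5.1, edgeR, limma and the build mm10, without roles, and the strand setting of counting is not given in the sources used here. The deposited count table holds raw counts. The authors' deposited CPM equal the count over the library total within 5e-04, and those of a filtered table of 15466 genes the count over the total of these genes, with the same tolerance.

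All results start from the counts. CPM values printed in the text use the library's whole total. The log2 CPM behind the likeness ranks, the GC deviations and the heat maps use TMM-scaled totals of the tested genes, with a prior count of 2. The genotype test used edgeR 4.0.16 under R 4.3.3 (TMM, filterByExpr, robust quasi-likelihood F test, two-sided, Benjamini-Hochberg over all tested genes, threshold 0.05), with DESeq2 1.42.0 and limma 3.58.1 voom among the alternatives. The code was tested on simulated data. SE follow from the F statistic. For the GC correction, deviations of log2 CPM (prior count 2) in each library were smoothed over transcript GC by a natural spline (df 4), whose values entered the fit as offsets, and 25878 identifiers had a GC value in GENCODE M21 for mm10. Members, lists, tests and alternatives were chosen with earlier results of these data known. Genes named by rule are the 10 members, the tested list genes with the smallest p (up to 4 past the test, otherwise 2 per list), the 3 most abundant of the zinc and iron lists, and the genes most like Mt2 (5) and Mt1 (3). Other list genes and markers in the text fall outside this rule, and include genes picked after their values were seen. Flvcr1 and Flvcr2 were matched by identifier. Promoter windows are from RefSeq, where 8 of the 10 genes were matched.

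Samples with the same replicate number deviated together from their group means across genes (correlations 0.372, 0.348 and 0.613 for numbers 1, 2 and 3). Wild-type replicate 1 with P95H/+ replicate 2 reached 0.463, and wild-type replicate 2 with P95H/+ replicate 1 reached 0.386. Both exceed the values of numbers 1 and 2, which are thus not shown to be pairs. A fit with the number as a block is given where it changes a count.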

Additional observations from a re-analysis of the deposited data

How the results depend on the processing

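The count of genes past the test, 0 with edgeR on 6 libraries, was 8 with DESeq2, 1 with the replicate block, 1 with the GC correction and the replicate block together (a setting added after the data were seen) and 144 without replicate 3 of both genotypes. It ranged from 0 to 1 when single libraries were left out, with the 1 found without wild-type replicate 3. The block changed no other call among the values given here. None of the 10 genes, 0 zinc transporters and 0 other iron genes passed in any of the 16 other fits, and of the glucocorticoid list 1 gene passed, without replicate 3 of both genotypes. Among list genes, small differences changed sign. Slc30a5 turned to 0.0492 without replicate 3 of both genotypes, and ranged from -0.1766 to 0.0313 with single libraries left out, above 0 without P95H/+ replicate 3. Slc39a9 turned to 0.0238 with sex as a term and 0.0165 without replicate 3 of both genotypes, and ranged from -0.139 to 0.0672, above 0 without wild-type replicate 3. Slc39a11 turned to 0.13 with sex as a term and ranged from -0.3019 to 0.25, above 0 without P95H/+ replicate 2 or wild-type replicate 3. Pcbp2 turned to -0.0429 with library totals alone and ranged from -0.0328 to 0.082, below 0 without replicate 1 of either genotype. The cause was not tested. In all 16 other fits Mt1, Mt2 and Slc40a1 stayed above 0 and Fth1 below 0, while the other 6 took both signs. Sex and age are not balanced between the genotypes, and with 3 libraries each and 10747941 counts in the shallowest, the precision of every value is limited by the spread between libraries.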

Other observations

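Some iron genes outside the report's rule, picked here after their values were seen, varied among libraries of 1 genotype. Ltf and Lcn2, which encode the iron-binding lactoferrin and the siderophore-binding lipocalin 2 of neutrophil granules, were high in P95H/+ replicate 3 and next in wild-type replicate 1, the sample of 54 weeks. Ltf stood at 32.5, 34.9 and 399 CPM in P95H/+ replicates 1, 2 and 3 and at 161, 34.5 and 64.3 CPM in those of wild type. Values of Lcn2 were 19.3, 19.3 and 152 CPM in P95H/+ cells and 64.4, 18.1 and 21.7 CPM in wild-type cells.

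Tfr2 and Steap3 were high in replicate 3 of both genotypes, where Tfrc was lowest. Tfr2, the second transferrin receptor, had 67.9, 67.8 and 167 CPM in P95H/+ cells and 54.9, 61.3 and 116 CPM in wild-type cells, and Steap3, an endosomal ferrireductase, had 76.1, 64.2 and 178 CPM in P95H/+ cells and 50.6, 57.1 and 126 CPM in wild-type cells. Ireb2, an iron regulatory protein gene, was low in them, at 138, 132 and 62.1 CPM in P95H/+ cells and 140.3, 132 and 84.96 CPM in wild-type cells. The part of the GC trend of the replicate 3 libraries in these values was not tested.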
